A study of Rattus norvegicus with 6 samples.

Results

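The genes described here carry proteins into mitochondria and fold or degrade them there. They are the 41 entries of the deposited count table, out of 26126, whose names begin with Tomm or Timm or that belong to a named set of mitochondrial chaperones and proteases. The set was defined by gene name and not by any measured value. Expression was measured by RNA sequencing in H9c2 cells, a rat line from embryonic myocardium, in 3 libraries with a control adenovirus (control) and 3 with the adenovirus labelled adPERK (PERK-labelled). All 6 libraries, controls included, came from cells given simulated ischemia-reperfusion. The cells stood in an acidic buffer of pH 6.2 with 2-deoxyglucose and lactate, in a chamber flushed for 30 min with 95% nitrogen and 5% carbon dioxide and sealed for a further 1.5 to 3.5 h. No group without this treatment was analysed here, so every value below describes treated cells. Serum at 10% is also recorded for all 6 libraries. The step in which it was used and the length of any reperfusion are not described here. Values of single libraries are given in the order of replicates 1, 2 and 3. The sources used here do not give the viral dose or the species of the PERK sequence. They also do not say whether replicates were separate cultures, so p-values cover no more than the variation among these 6 libraries, which may be technical.

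Nearly all mitochondrial proteins are encoded in the nucleus, made in the cytosol and imported. The TOM complex of the outer membrane receives them, the TIM23 complex passes those with a cleavable leader into the matrix, and small TIM chaperones hand carrier proteins to the TIM22 complex of the inner membrane. In the matrix, mitochondrial HSP70 (Hspa9) pulls the chain in, the processing peptidase removes the leader, and the HSP60 chaperonin (Hspd1 with Hspe1) folds it. Proteases such as LONP1, CLPXP and the AAA proteases of the inner membrane remove proteins that fail to fold. PERK, encoded by Eif2ak3, lowers general translation by phosphorylating eIF2 alpha. In human cells TIMM17A protein has been seen to fall when PERK does so, a change of protein that RNA counts cannot show.

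The libraries held 77923398 to 119087414 counts, of which the 41 genes took 165974 to 268559, or 0.213% to 0.2255%. In bulk RNA, fewer cells of a type and less RNA per cell cannot be told apart. Control replicate 3 had 19287 entries above 0 against 15377 to 16685 in the other 5 libraries. Low counts (4 to 33) lay within 1 of a multiple of 6 in 61.2% to 63.7% of cases, where an even spread gives 3 of every 6 values, and whether each count is an independent fragment was not tested. The H9c2 label was checked against 12 skeletal and cardiac muscle genes, all of them tested, whose sum was 2050 to 2180 CPM in control and 2070 to 2150 CPM with the PERK label. Of the 12, 7 estimates lay above 0 and 5 below. Mef2c and Tnnc1 were higher with the PERK label without overlap, where 9.66% of all tested entries were. Their log2 fold changes were 0.43 and 0.15 (edgeR adjusted p = 0.268 and 0.15). The 1 gene that passed the test was lower, where 0.11% of all tested entries were called lower. Myog, a transcription factor of muscle differentiation, fell from 474, 491 and 493 CPM to 389.7, 408 and 401 CPM (log2 fold change -0.28, SE 0.03, edgeR adjusted p = 0.0137), and its part in the results was not tested. CPM is the count scaled by the TMM-adjusted library total, and it is compared only between libraries since gene lengths were not used. The 7 genes listed for mature heart muscle summed to 2.66 to 4.75 CPM in control and 4.4 to 5.55 CPM with the PERK label, and 0 of the 3 tested passed. Most of that sum was Gata4, a cardiac transcription factor, at 2.53, 3.47 and 4.11 CPM against 4.28, 4.15 and 4.79 CPM without overlap (edgeR adjusted p = 0.482). Tnni3 and Nkx2-5 were under 0.5 CPM in each library, Nppa and Nppb were at 0 in all 6, and Myh6 and Ryr2 were above 0 in control replicate 3 alone. Of other cell types, 5 endothelial, 5 leukocyte and 5 epithelial markers were listed, of which 1, 3 and 3 were tested and 0 passed. Their sums were 1.29 to 1.99, 8.46 to 12.1 and 48.7 to 52.8 CPM in control and 0.638 to 0.919, 9.98 to 11 and 53.2 to 54.3 CPM with the PERK label. Most of the endothelial sum was Tek, at 1.56, 1.295 and 1.335 CPM in control against 0.638, 0.878 and 0.860 CPM with the PERK label. Most of the leukocyte sum was Cd14, and most of the epithelial sum was Krt8, followed by Krt7. Cdh5, Kdr, Vwf, Ptprc, Cd68, Epcam, Cdh1 and Krt18 were under 0.5 CPM in each library. The endothelial and epithelial sums did not overlap between groups, and their part in the results was not tested. Eif2ak3 itself did not separate the groups, at 26.4, 26.9 and 23.96 CPM in control libraries and 26.5, 26.5 and 25.95 CPM in those labelled PERK (log2 fold change 0.03, edgeR adjusted p = 0.887). Directions below therefore rest on the labels.

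The RNA of the import and quality control genes differed little between the groups. Of 41 genes 40 were tested, and 0 passed edgeR's quasi-likelihood test at an adjusted p of 0.05, higher or lower, where 0.421% of the 14488 tested entries did. At an unadjusted p under 0.05 there were 3, namely Hspa9, Tomm34 and Timm22, where 11.2% of all tested entries lay. All 3 were estimated higher in the PERK-labelled libraries, where 5.94% of all entries had both. The number was 5 without PERK replicate 1, 1 without PERK replicate 2 and 6 without PERK replicate 3. With limma voom 0 passed, and with DESeq2 1 did, Hspa9, where DESeq2 called 4.18% of the entries for which it gave an adjusted p. The authors' deposited table lists no member with an adjusted p under 0.05 (2.27% of its entries are), and its lowest adjusted p among these genes is 0.492, for Tomm34. The 2 untested or barely counted genes were Tomm20l and Timm8a2. Tomm20l, a paralogue of Tomm20, was listed at 0 in all 6 libraries, which allows up to 0.15 to 0.231 CPM when 18 counts (3 steps of 6) are taken as the limit of counting. Timm8a2 had 7, 11 and 43 counts in control libraries and 24, 0 and 0 in those labelled PERK, and no direction was read from such counts (edgeR adjusted p = 0.783).

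**Figure D1:**
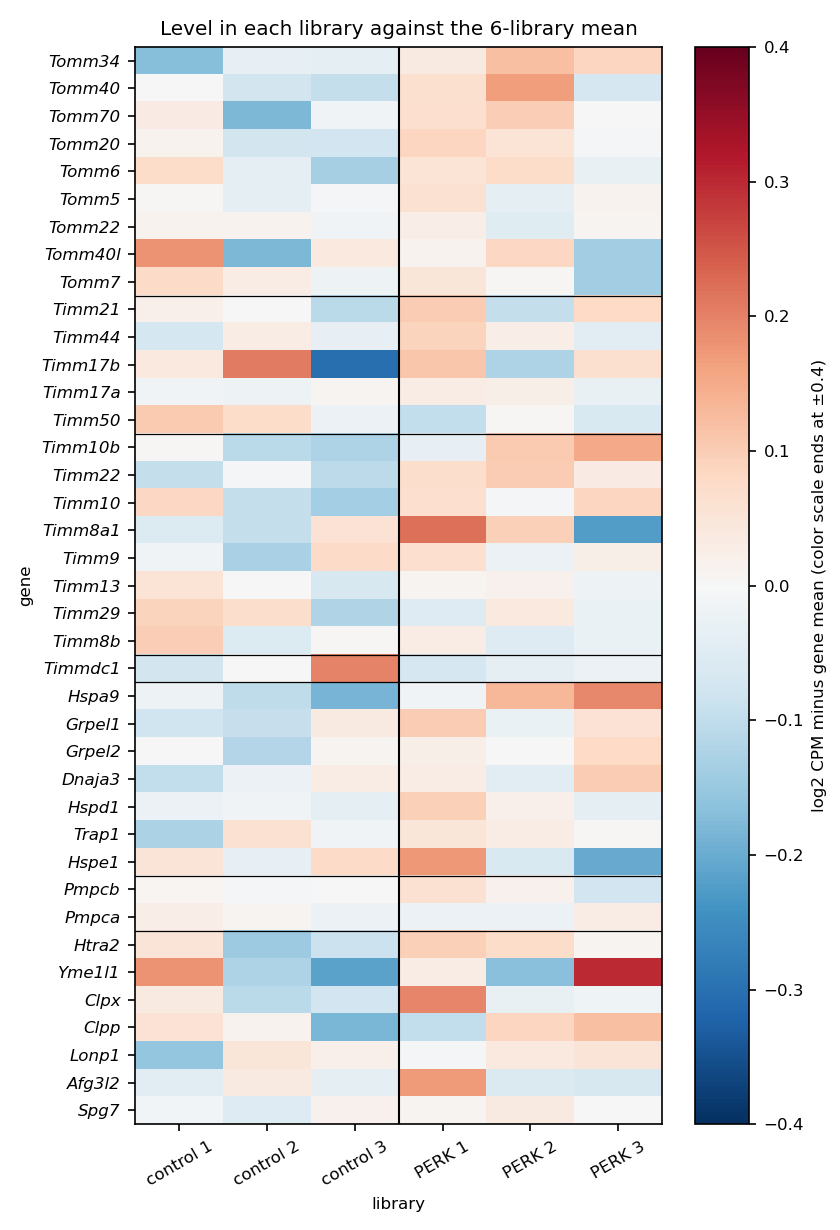
Each row is 1 of 39 genes and each column 1 library; color gives the gene's log2 CPM in that library minus its mean over the 6 libraries, and black lines separate the groups and the roles. Most cells are pale, and the strongest color is found in Timm17b, Yme1l1, Timm8a1 and Hspe1, where libraries of 1 group stand on both sides of the mean; Tomm20l and Timm8a2 are not drawn.

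These estimates were precise enough to bound the differences between these 6 libraries. Like the p-values, the intervals cover no more than the variation among them, which may be technical. The 95% interval of the log2 fold change lay inside a 1.5-fold change in either direction for 39 of the 40 tested genes, the exception being Timm8a2, and inside a 1.2-fold change for 28. Over all tested entries the shares were 70.4% and 38.0%. The median standard error was 0.0602 for these genes, 0.0674 for the tested entries at the same level described next, and 0.0978 for all tested entries. Of the 40 estimates 30 lay above 0, where 48.7% of all tested entries did, and their median was 0.05 against -0.0045 for all. Among the 9188 tested entries with a mean level inside the range of the members other than Timm8a2, 6.08 to 421 CPM, 50.8% lay above 0 and the median was 0.0018. The members' median was 0.023 without PERK replicate 1. Groups did not overlap for 3 members, all with the PERK-labelled libraries higher, where the groups did not overlap for 18.2% of all tested entries. That share is made up of 9.66% of all tested entries with PERK-labelled libraries higher and 8.55% with them lower.

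**Figure D2:**
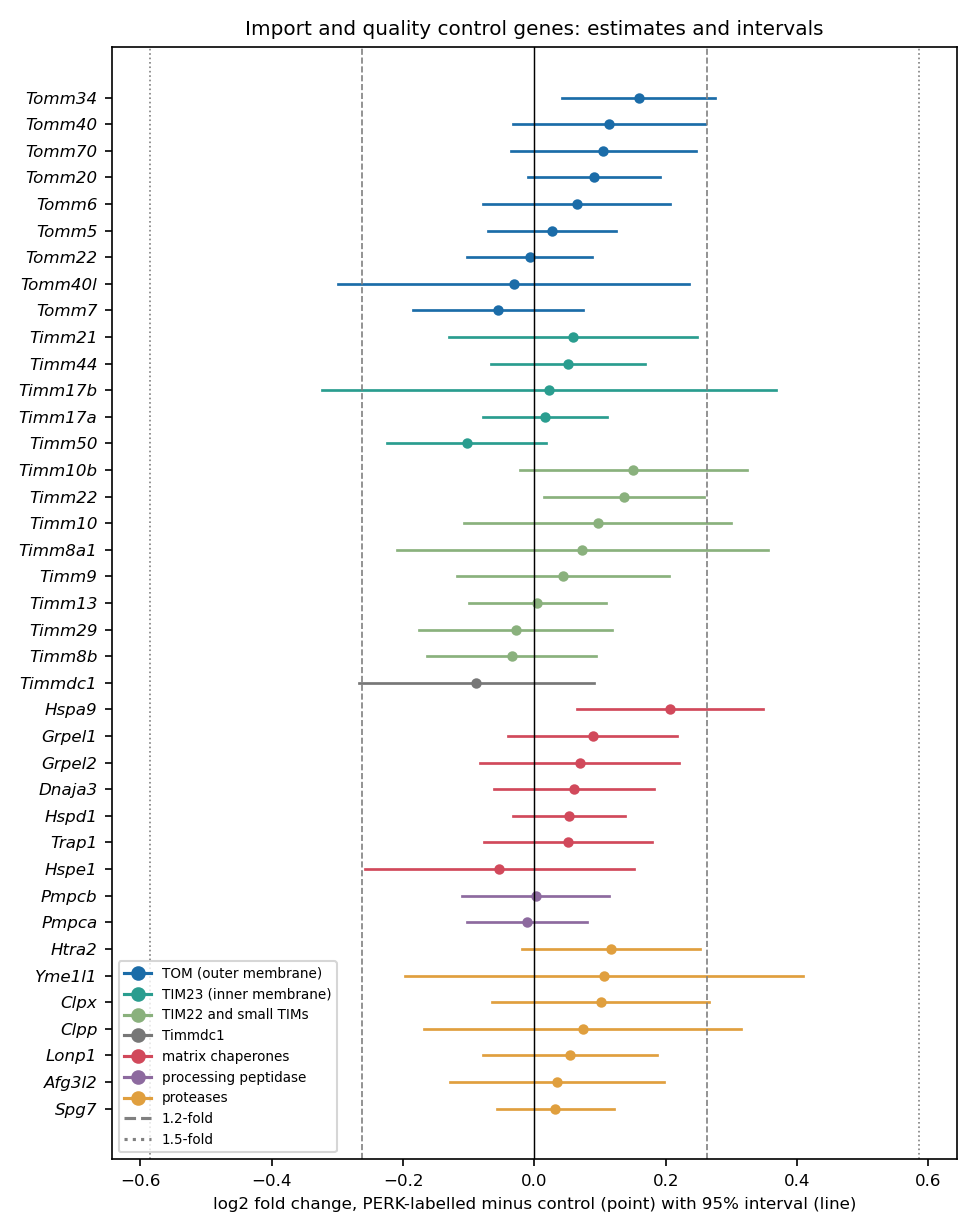
Points are log2 fold changes (PERK-labelled minus control, 3 libraries a group) and lines their 95% intervals from the edgeR fit, by role; dashed and dotted lines mark 1.2-fold and 1.5-fold changes. All 39 intervals drawn end inside the 1.5-fold lines, and those of Hspa9, Tomm34 and Timm22 lie above 0 (Timm8a2, whose interval runs from -5.43 to 2.22, is not drawn).

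**Figure D3:**
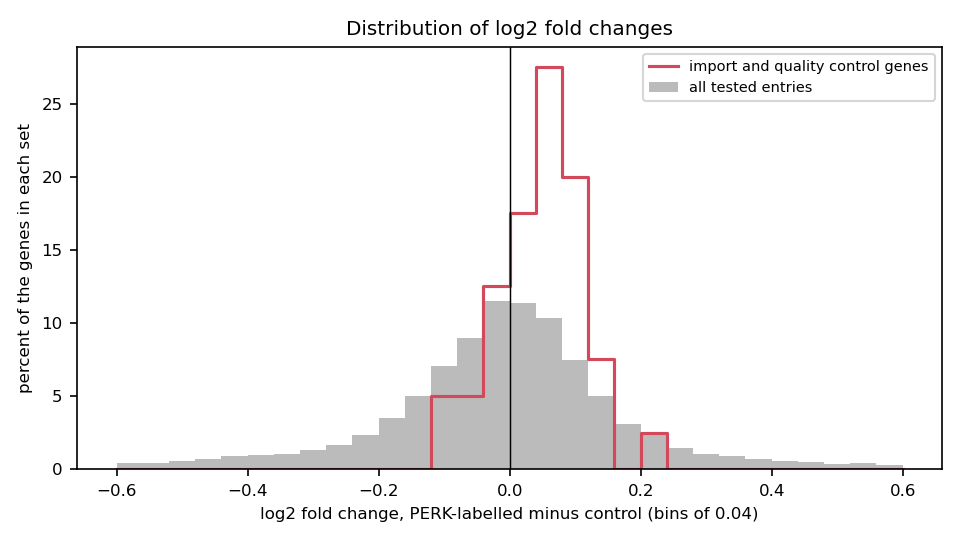
Percent of genes (y axis) in bins of log2 fold change (x axis, PERK-labelled minus control), for all tested entries in gray and the 40 tested import and quality control genes as a red line. The red line covers a narrower range than the gray bars and its highest bins lie just above 0; 1182 of all tested entries and 1 member, Timm8a2, fall outside the axis.

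Of the genes named Tomm, 0 of 9 tested passed the test and 6 estimates lay above 0 (median 0.06). Without Tomm34, which is not a subunit of the TOM complex, 5 of 8 lay above 0 (median 0.05). Tomm20 encodes the receptor for proteins with a leader. Its level was 142, 133 and 133 CPM in control libraries and 149, 145 and 140 CPM in those labelled PERK (log2 fold change 0.09, SE 0.04, edgeR adjusted p = 0.487). PERK replicate 3 lay below control replicate 1, so the groups overlapped. Tomm70, the receptor for carrier proteins and a dock for cytosolic chaperones, stood at 46.9, 40.4 and 45.3 CPM in control libraries and 47.9, 48.99 and 45.7 CPM in those labelled PERK (log2 fold change 0.10, SE 0.06, edgeR adjusted p = 0.565). Tomm40 forms the channel itself. Its levels were 52.3, 49.7 and 48.9 CPM in control libraries and 54.6, 58.7 and 49.9 CPM in those labelled PERK (log2 fold change 0.11, SE 0.06, edgeR adjusted p = 0.542). Both groups overlapped again for Tomm40 and for Tomm70. Tomm22, the central receptor that holds the complex together, had 96.0 ± 1.03 and 95.5 ± 2.59 CPM (SD, n = 3), and its log2 fold change was -0.0074 with a 95% interval from -0.10 to 0.09. Tomm40l, a paralogue of the channel, was at 13.0, 10.2 and 11.8 CPM in control against 11.6, 12.2 and 10.4 CPM with the PERK label (log2 fold change -0.03). The small subunits Tomm5, Tomm6 and Tomm7, which help assemble the channel, had log2 fold changes of 0.03, 0.06 and -0.06.

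Tomm34 was among the 3 genes whose groups did not overlap. Despite its name it encodes a largely cytosolic partner of HSP70 and HSP90 that handles precursors before import. It stood at 33.6, 37.0 and 36.96 CPM in control libraries and at 38.8, 41.1 and 40.2 CPM in those labelled PERK. Every PERK-labelled library was above every control library, and control replicate 1 was the lowest. The log2 fold change was 0.16 (SE 0.05, unadjusted p = 0.0137), and it did not pass after adjustment (edgeR adjusted p = 0.28). It ranged from 0.11 to 0.18 with 1 library left out.

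The TIM23 complex had 0 of 5 genes past the test. Timm23, the subunit that names it, has no entry among the deposited counts, so the complex is read without it. Timm17a, a core subunit of the channel, was the steadiest of all 40 tested genes, with a within-group SD of 0.03 on the log2 CPM scale. Its levels were 58.2, 57.9 and 59.2 CPM in control libraries and 59.96, 59.6 and 57.6 CPM in those labelled PERK. The log2 fold change was 0.02, with a 95% interval from -0.08 to 0.11 (edgeR adjusted p = 0.925). Timm17b, the alternative form of the same subunit, was measured from fewer counts, at 6.21, 6.98 and 4.90 CPM in control libraries and 6.52, 5.55 and 6.31 CPM in those labelled PERK. Its interval was wider, from -0.32 to 0.37. Timm50 encodes the receptor that passes leaders to the channel. It was the member of the complex with an estimate below 0, at 31.7, 31.1 and 29.0 CPM in control libraries and 27.6, 29.6 and 28.3 CPM in those labelled PERK (log2 fold change -0.10, SE 0.05, edgeR adjusted p = 0.51). PERK replicate 2 lay above control replicate 3, so its groups overlapped. Timm44 ties HSP70 to the channel. It was at 76.0, 81.5 and 77.98 CPM in control against 84.9, 81.3 and 77.6 CPM with the PERK label (log2 fold change 0.05, edgeR adjusted p = 0.773). Timm21, which links the complex to TOM, was at 16.2, 15.96 and 14.8 CPM against 17.1, 14.9 and 16.9 CPM (log2 fold change 0.06, edgeR adjusted p = 0.844). Neither separated the groups.

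Of the TIM22 complex and the small TIMs, 0 of 9 tested genes passed and 6 estimates lay above 0. Timm22 encodes the channel that inserts metabolite carriers into the inner membrane. Its level was 22.2, 23.6 and 22.0 CPM in control libraries and 24.9, 25.4 and 24.2 CPM in those labelled PERK. The 3 PERK-labelled libraries were all above the 3 controls. The log2 fold change was 0.14 (SE 0.05, unadjusted p = 0.0329, edgeR adjusted p = 0.383), and its interval ran from 0.01 to 0.26. Timm10b, a small TIM bound to that channel, was at 17.95, 16.6 and 16.4 CPM in control libraries and 17.5, 19.2 and 19.9 CPM in those labelled PERK (log2 fold change 0.15, SE 0.08, edgeR adjusted p = 0.499). PERK replicate 1 was below control replicate 1 here. Timm10 and Timm9 together form a chaperone ring in the space between the membranes. Timm10 was at 13.9, 12.3 and 11.9 CPM against 13.8, 13.1 and 13.9 CPM (log2 fold change 0.10, edgeR adjusted p = 0.745), and Timm9 had a log2 fold change of 0.04. Timm13, Timm8b and Timm8a1, the other ring, lay at 0.0046, -0.03 and 0.07. Timm29, a further subunit of TIM22, lay at -0.03. Timmdc1 shares the name but serves the assembly of respiratory complex I. Its levels were 19.6, 20.7 and 23.7 CPM in control libraries and 19.7, 20.2 and 20.3 CPM in those labelled PERK (log2 fold change -0.09, SE 0.08, edgeR adjusted p = 0.732), with control replicate 3 above the other 5 libraries.

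Among the 7 matrix chaperones, 0 passed the edgeR test and 6 estimates lay above 0 (median 0.06). Hspa9, the HSP70 that drives import, had the highest estimate of the 40 genes. Its level was 203, 192 and 181 CPM in control libraries and 204, 225.5 and 235 CPM in those labelled PERK. The PERK-labelled libraries were above the controls, but PERK replicate 1 exceeded control replicate 1 by less than 1 CPM. The means were 192 ± 10.99 and 221 ± 16.1 CPM (SD, n = 3). The log2 fold change was 0.21 (SE 0.06, 95% interval 0.06 to 0.35, unadjusted p = 0.00994, edgeR adjusted p = 0.247). With 1 library left out the edgeR adjusted p ranged from 0.19 to 0.505. DESeq2 gave it 0.20 (SE 0.06, DESeq2 adjusted p = 0.0119). That call ended without control replicates 2 or 3 (DESeq2 adjusted p = 0.132 and 0.224) and without PERK replicates 2 or 3 (0.226 and 0.237), and it held without control replicate 1 (0.0107) or PERK replicate 1 (2.74e-04). The authors' deposited table gives Hspa9 a log2 fold change of 0.21 with an adjusted p of 0.756.

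The partners of Hspa9 had smaller estimates, and none passed the test. Grpel1 and Grpel2 release its nucleotide, and Dnaja3 is a J protein that starts its cycle. Grpel1 was at 26.4, 26.2 and 28.6 CPM in control libraries and 29.9, 27.4 and 29.0 CPM in those labelled PERK (log2 fold change 0.09, SE 0.06, edgeR adjusted p = 0.603). Grpel2 was at 18.6, 17.1 and 18.7 CPM against 18.9, 18.6 and 19.6 CPM (log2 fold change 0.07), and Dnaja3 had a log2 fold change of 0.06. The groups overlapped for all 3. Trap1, the HSP90 of mitochondria, lay at 0.05, with an interval from -0.08 to 0.18.

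Hspd1 and Hspe1, the ring and the lid of the chaperonin, are read in opposite directions from a shared promoter. Hspd1 was at 414, 416 and 409 CPM in control libraries and 449, 426 and 410.0 CPM in those labelled PERK (log2 fold change 0.05, SE 0.04, edgeR adjusted p = 0.654). Hspe1 was at 61.6, 58.1 and 62.7 CPM in control libraries and 67.1, 57.0 and 51.7 CPM in those labelled PERK (log2 fold change -0.05, SE 0.09, edgeR adjusted p = 0.869). PERK replicate 1 was the highest library for both genes, while PERK replicate 3 was the lowest for Hspe1 and lay within the controls for Hspd1. RefSeq lists 20 pseudogenes under the name of Hspd1 and 1 under that of Hspe1, and the sources used here do not say how reads shared with such copies were counted. In all, 12 of the 41 genes have such pseudogenes, 38 together, Hspa9 (2) among them, so their levels are uncertain to that extent.

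**Figure D4:**
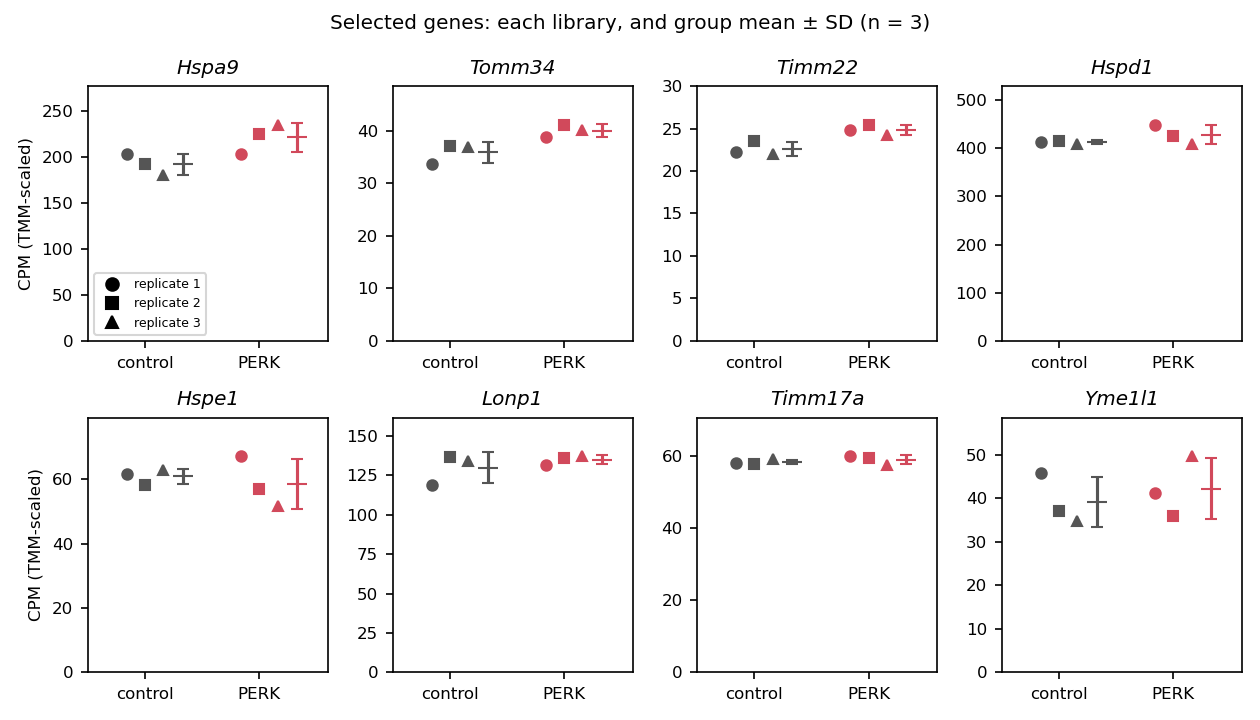
CPM (y axis, from 0) of 8 genes in each library, with marker shapes for replicates 1 to 3 and bars for the group mean ± SD (n = 3). Hspa9, Tomm34 and Timm22 show PERK-labelled libraries above the controls by small margins, and the other 5 genes overlap.

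The promoter sequences of 3 genes, chosen with the measured values known, are shown as examples of the letters of stress-factor motifs. They are the 250 bases before the RefSeq start on the GRCr8 assembly, 5′ to 3′ on the gene's strand. Capitals mark, for Hspe1, the heat shock element of 3 units (GAANNTTC followed directly by NNGAA), the form bound by HSF1, of which 2 overlapping copies on opposite strands fill the capitals. In Hspa9 and Timm22 they mark the composite site of C/EBP and ATF factors (TGATGNAA), the form through which ATF4 and CHOP act on their targets, and in Hspa9 also the heat shock element of 2 units (GAANNTTC). Tomm40l carries the composite site too, and Clpp and Spg7 the element of 2 units, but their sequences are not printed. The Hspe1 stretch is chr9:64084077-64084326 on the plus strand, and the start of Hspd1 lies 289 bases from that of Hspe1, so that 211 of the 250 bases before Hspd1 are in it too. The Hspa9 stretch is chr18:26828399-26828648 on the minus strand and that of Timm22 chr10:61751436-61751685 on the plus strand.
Hspe1: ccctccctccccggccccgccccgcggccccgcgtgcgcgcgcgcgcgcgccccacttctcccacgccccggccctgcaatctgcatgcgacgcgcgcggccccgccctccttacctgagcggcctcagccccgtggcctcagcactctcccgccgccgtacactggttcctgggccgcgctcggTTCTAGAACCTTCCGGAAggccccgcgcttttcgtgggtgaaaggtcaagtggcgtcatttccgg
Hspa9: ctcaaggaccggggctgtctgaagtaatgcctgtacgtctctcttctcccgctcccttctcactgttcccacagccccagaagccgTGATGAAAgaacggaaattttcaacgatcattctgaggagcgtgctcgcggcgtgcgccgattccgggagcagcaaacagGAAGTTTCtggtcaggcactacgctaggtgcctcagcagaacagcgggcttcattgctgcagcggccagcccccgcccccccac
Timm22: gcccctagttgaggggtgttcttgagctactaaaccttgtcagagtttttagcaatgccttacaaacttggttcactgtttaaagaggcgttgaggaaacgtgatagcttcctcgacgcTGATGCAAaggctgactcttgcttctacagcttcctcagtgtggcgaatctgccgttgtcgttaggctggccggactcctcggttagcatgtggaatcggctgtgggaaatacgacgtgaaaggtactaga

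Promoter windows were found for 36 of the 41 genes, all but Tomm34, Htra2, Clpx, Lonp1 and Timm29. Both strands were searched and matches could overlap. In the Hspd1 and Hspe1 windows the heat shock elements overlap each other and the ETS core. These are the same bases of the shared promoter, so the members' shares below count them for both genes. The C/EBP-ATF letters stood in 3 of the 36 windows (8.3%), those of Hspa9, Timm22 and Tomm40l, against 1.79% of the windows of 9654 tested genes and 3.27% of 27457 windows of the same length. Of these 3 genes, Hspa9 and Timm22 had log2 fold changes of 0.21 and 0.14 and Tomm40l had -0.03. The heat shock element of 2 units was found in 5 windows (13.9%), those of Hspd1, Hspe1, Hspa9, Clpp and Spg7, against 4.72% of tested genes and 7.02% of all windows. That of 3 units stood in the shared Hspd1 and Hspe1 promoter alone (0.41% of tested genes, 0.60% of all windows). The letters of nuclear respiratory factor 1 (GCGC, any base, then TGCGC), a regulator of mitochondrial genes, were in 7 windows (19.4%), including those of Tomm20, Tomm7, Grpel1, Grpel2 and Dnaja3, against 9.16% of tested genes and 4.17% of all windows. The ETS core (CCGGAAG), read by GABP among others, was in 16 windows (44.4%) against 14.98% of tested genes and 7.74% of all windows. These matches describe letters and not binding. The motifs were chosen with the members' values known.

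The processing peptidase, whose subunits Pmpca and Pmpcb cut the leader, had estimates close to 0. Pmpca was at 49.9, 49.3 and 48.2 CPM in control libraries and 48.1, 48.2 and 49.9 CPM in those labelled PERK, and Pmpcb at 68.3, 67.6 and 67.9 CPM against 70.8, 68.8 and 64.4 CPM. Their log2 fold changes were -0.01 (95% interval -0.10 to 0.08) and 0.0018 (-0.11 to 0.11), and the groups overlapped for both.

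All 7 protease genes had estimates above 0, between 0.03 and 0.12, and 0 passed the test. With 1 library left out, Lonp1, Afg3l2 and Yme1l1 were below 0 in 1 fit each, while under each scaling all 7 stayed above. Lonp1, the main ATP-dependent protease of the matrix, was at 119, 137 and 134 CPM in control libraries and 131.5, 136 and 137 CPM in those labelled PERK (log2 fold change 0.05, SE 0.06, edgeR adjusted p = 0.788). Control replicate 1 stood below the other 5 libraries, which lay close together. Htra2, a serine protease between the membranes that promotes cell death when released, was at 61.3, 53.5 and 55.8 CPM in control libraries and 63.1, 62.2 and 59.6 CPM in those labelled PERK (log2 fold change 0.12, SE 0.06, edgeR adjusted p = 0.509). Clpx, the unfoldase of the CLPXP protease, was at 32.4, 29.4 and 30.0 CPM against 36.3, 31.0 and 31.2 CPM (log2 fold change 0.10, edgeR adjusted p = 0.654). Its peptidase Clpp was at 11.8, 11.4 and 9.98 CPM against 10.6, 12.0 and 12.3 CPM (log2 fold change 0.07, edgeR adjusted p = 0.85). Of the AAA proteases, Yme1l1, which faces the space between the membranes, varied most within groups, at 45.7, 37.0 and 34.8 CPM in control libraries and 41.1, 35.9 and 49.6 CPM in those labelled PERK. Its within-group SD was 0.22 on the log2 CPM scale and its interval ran from -0.20 to 0.41. Afg3l2 and Spg7 form the AAA protease facing the matrix. Afg3l2 was at 26.05, 27.55 and 26.2 CPM against 30.2, 25.8 and 25.7 CPM (log2 fold change 0.03), and Spg7 at 45, 43.7 and 45.9 CPM against 45.7, 46.6 and 45.3 CPM (log2 fold change 0.03).

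Ratios of partner genes within a library do not depend on scaling, and 7 pairs were compared by a two-sided exact permutation test. With 3 libraries against 3 the smallest p this test allows is 0.10. No pair reached it. The log2 ratio of Hspd1 to Hspe1 counts was 2.75, 2.84 and 2.71 in control libraries and 2.74, 2.90 and 2.99 in PERK-labelled libraries, a difference of 0.11 (exact permutation p = 0.3, adjusted p = 1 over 7 pairs). The ratio of Timm17a to Timm17b was 3.29 ± 0.28 in control libraries and 3.27 ± 0.13 in PERK-labelled libraries on the log2 scale (SD, n = 3, exact permutation p = 0.8). Tomm40 to Tomm40l differed by 0.14 (exact permutation p = 0.4). The differences for Grpel1 to Grpel2, Clpp to Clpx, Pmpca to Pmpcb and Afg3l2 to Spg7 were 0.02, -0.02, -0.01 and -0.0012. These ratios compare counts that depend on transcript length and are read across libraries only.

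Summed over the 41 genes, the level was 2183, 2152 and 2131 CPM in control libraries and 2280.1, 2244 and 2216 CPM in those labelled PERK. All 3 PERK-labelled sums were above the controls, with means of 2155 ± 26.0 and 2247 ± 31.9 CPM (SD, n = 3). Without Hspd1 and Hspa9, which weigh most in the sum, the remaining 39 genes gave 1566, 1544 and 1541 CPM against 1628, 1593 and 1572 CPM, again without overlap. By role, the sums of the 7 matrix chaperones (804 to 819 CPM in control, 852 to 875 CPM in those labelled PERK) and of the 7 proteases (337 to 341 and 349 to 361 CPM) did not overlap. The chaperone sums overlapped once Hspa9 was left out, at 616, 624 and 623 CPM against 671, 633 and 617 CPM. The protease sums overlapped once Lonp1 was left out, at 222, 203 and 203 CPM against 227, 213.5 and 224 CPM. The sum over all genes did not overlap with any 1 of the 41 left out, but this keeps the same libraries and does not probe variation among them. The sums of the Tomm genes, the TIM23 genes, the TIM22 genes with the small TIMs, and the processing peptidase overlapped. These sums are descriptions and were not tested. Even without overlap, a two-sided exact permutation test of 3 libraries against 3 cannot go below p = 0.10. Of single entries, 18.2% of all tested did not overlap. The members' median deviation from the gene mean of log2 CPM was 0.0062, -0.0274 and -0.0234 in control libraries. It was 0.0511, 0.0182 and -0.002 in PERK-labelled libraries, so by this measure the groups overlapped. The summed endothelial and epithelial markers, Myog, Mef2c and Tnnc1, given above, also separated the groups, and their part was not tested. PERK replicate 1 was the highest library for 14 of the 40 tested genes, and control replicate 3 the lowest for 14.

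**Figure D5:**
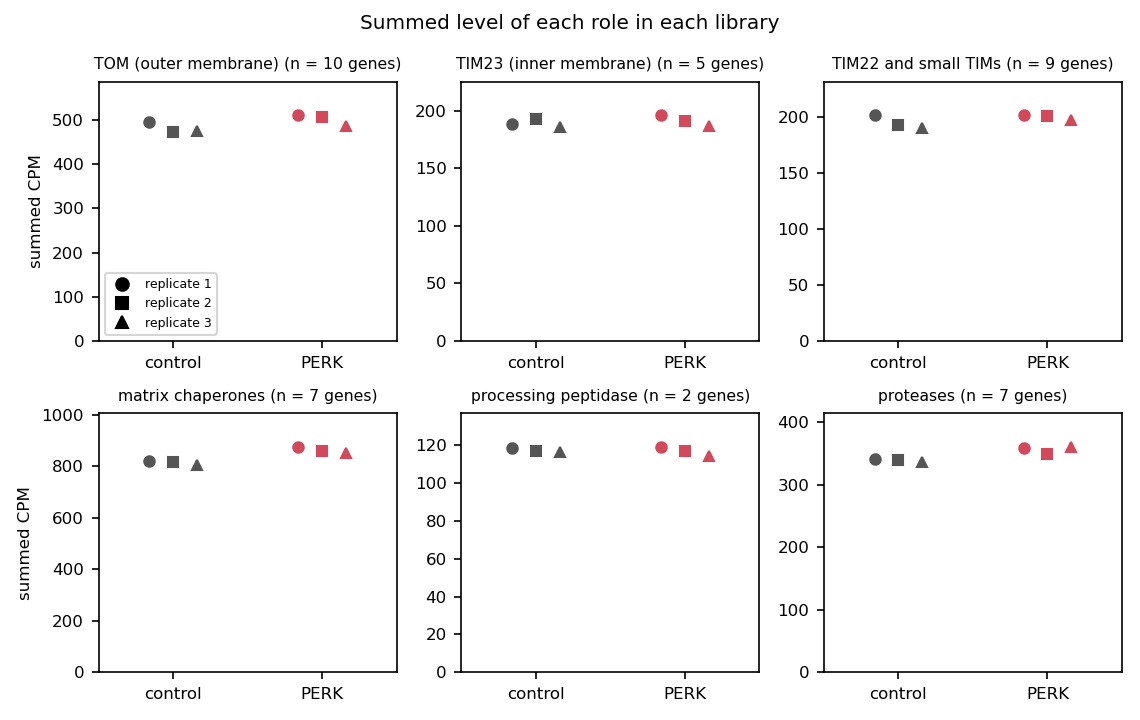
Summed CPM (y axis, from 0) of the genes of each role in each of the 6 libraries, with marker shapes for replicates 1 to 3. The PERK-labelled libraries lie above the controls for matrix chaperones and proteases by small margins (overlapping without Hspa9 or Lonp1), the TOM panel includes Tomm34, and the groups overlap in the other 4 panels.

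Further genes of the same pathways were measured too. Of 55 tested genes in 4 lists 1 passed, Dnajb1, where 0.311% of all tested entries were called higher and 0.110% lower. Dnajb1, a cytosolic J protein of the heat shock response that works with HSP70, rose from 114, 107 and 105 CPM in control to 139, 140.3 and 138 CPM in those labelled PERK (log2 fold change 0.36, SE 0.04, edgeR adjusted p = 0.0199). It was the 1 changed gene of 14 in the list of cytosolic chaperones that deliver precursors, which had a median of 0.02. Among 17 further import genes, with a median of 0.02, 0 passed. The smallest p-values there belonged to Gfer, a sulfhydryl oxidase of the intermembrane relay, at 17.6 ± 1.51 and 19.8 ± 0.98 CPM (SD, n = 3) without overlap, and Oxa1l, the inner membrane insertase, at 30.9 ± 2.42 and 28.5 ± 0.658 CPM (edgeR adjusted p = 0.478 and 0.526). Among 15 further quality control genes 0 passed. Parl, a rhomboid protease of the inner membrane, was at 31.7, 24.2 and 25.9 CPM in control libraries and 34.8, 36.3 and 28.98 CPM in those labelled PERK (log2 fold change 0.29, SE 0.11, edgeR adjusted p = 0.391), with overlap. Clpb, a disaggregase, was at 32.1 ± 1.82 and 34.4 ± 0.777 CPM (edgeR adjusted p = 0.521). Among 9 tested stress regulators 0 passed, 4 estimates lay above 0 and 5 below, and the median was -0.0012. Atf4, whose protein is made more efficiently when PERK is active, was at 413, 413.9 and 399.7 CPM in control against 458, 461 and 432 CPM with the PERK label. The groups did not overlap, and the log2 fold change of 0.14 (SE 0.04) did not pass (edgeR adjusted p = 0.19). Ppargc1b, a coactivator of mitochondrial genes, was at 4.00, 5.54 and 5.43 CPM against 4.46, 3.95 and 4.43 CPM (edgeR adjusted p = 0.647). Atf5, named after its values were seen because it drives mitochondrial chaperone genes in mammals, was at 105 ± 6.44 and 110.5 ± 7.24 CPM (edgeR adjusted p = 0.743). Ddit3, which encodes CHOP, and Hsf1 were also named after their values were seen. Their log2 fold changes were -0.0012 and -0.08 (edgeR adjusted p = 0.998 and 0.681), and the groups overlapped for both.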

How the data were processed

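The authors deposited a table of whole-number counts for 26126 entries in 6 libraries. Per the labels' protocols, each library was made with a TruSeq RNA kit (1 ug of input). Bowtie 0.12.2 and mm9, a mouse build, appear in the submitters' processing notes, although the entries have rat names. The sources used here do not give the build, the counter or the use of strand behind the counts. In the same table the authors deposited normalized signal (counts divided by 1 size factor per library, as tested on the file), log2 fold changes, a test score and p-values. These were not used in any test here, and printed values from them are named as the authors'. A second table was not used, since the names of its 6 sample columns fit no label.

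Counts were tested in edgeR 4.0.16 (R 4.3.3) on the whole table: filterByExpr (minimum count 10), which left 14488 entries, TMM scaling, glmQLFit and glmQLFTest with group as the term, Benjamini-Hochberg adjustment over all tested entries, threshold 0.05. Standard errors are the fold change over the root of F, and 95% intervals use the test's degrees of freedom. Alternatives were DESeq2 1.42.0, limma 3.58.1 voom, other scalings and filters, a robust fit, counts divided by 6, a replicate block and each library left out. The steps were also run on simulated counts, drawn without the clustering of low counts near multiples of 6. No result given here rests on that run. The limit given for a gene at 0 covers counting error only.

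Every member is accounted for. Values in every library are given for the 3 members with the smallest p in each role, for a fixed set of central subunits, and for partner pairs. Of the other lists, changed genes are named, or else the 2 with the smallest p. Members, lists, motifs and alternatives were chosen with earlier results of these data known. RefSeq sequences are from GRCr8. Timm23 was not analysed here, since the deposited counts hold no entry of that name.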

Additional observations from a re-analysis of the deposited data

How the results depend on the processing

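The 0 members past edgeR's test stayed 0 under 14 of 15 alternatives, and DESeq2 gave 1, Hspa9. Its calls without each library, the sums with a gene left out and the values without Tomm34 were added after seeing the data. Over all entries, 61 passed (45 higher, 16 lower with PERK). DESeq2 gave 394 (250 and 144), limma voom 110 (83 and 27). The counts were 132 (94 and 38) with the robust fit, 94 (31 lower) without a filter, 93 (30 lower) with counts divided by 6, and 26 lower with the stricter filter. They were 12 to 38 (7 to 23 higher, 4 to 15 lower) with 1 library left out, the fewest without PERK replicate 1. Same-numbered libraries did not deviate together (correlations -0.06, 0.01 and 0.03). The replicate block left 9 entries (7 higher, 2 lower) and 0 members. The members' median was 0.023 to 0.0569 with 1 library left out. Of 40 members, 27 kept their sign wherever tested. Pmpcb was -1e-04 with DESeq2's size factors and -3e-04 with the stricter filter. With 1 library left out, signs turned for 13 members, whose log2 fold changes spanned -0.045 to 0.0765 for Afg3l2, -0.1599 to 0.0298 for Hspe1, -0.0081 to 0.0914 for Lonp1, -0.0267 to 0.0412 for Pmpcb, -0.0246 to 0.0334 for Timm13, -0.1056 to 0.1382 for Timm17b, -0.0921 to 0.0095 for Timm29, -0.0233 to 0.1903 for Timm8a1, -0.0713 to 0.0076 for Timm8b, -0.0098 to 0.0941 for Timm9, -0.0203 to 0.014 for Tomm22, -0.1236 to 0.0542 for Tomm40l and -0.0238 to 0.2322 for Yme1l1. The partner ratios turned likewise for Timm17a to Timm17b (-0.139 to 0.1318), Grpel1 to Grpel2 (-0.0153 to 0.0364), Clpp to Clpx (-0.101 to 0.1166), Pmpca to Pmpcb (-0.0683 to 0.0272) and Afg3l2 to Spg7 (-0.0805 to 0.0464). The cause was not tested. Depth limits Timm8a2 and Tomm20l most.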
